A study of Mus musculus with 6 samples.

Results

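The transcripts of 39 autophagy genes were followed in RANKL-treated RAW264.7 cells with and without etelcalcetide. The genes were listed by name for their known place in the pathway, with earlier results of these data already known. All 39 were found among the 55536 Ensembl gene identifiers of the deposited tables through the mouse annotation GENCODE M21 (GRCm38). They comprise 16 genes of initiation, 11 of the conjugation machinery, 5 of the LC3 family and 7 cargo receptors, and 38 of them were abundant enough to test. RAW264.7 is an immortalised line of mouse macrophages, and RANKL is the cytokine that drives such cells to become osteoclasts, which resorb bone. Every culture received RANKL at 50 ng/mL. In 3 libraries the cells had RANKL plus etelcalcetide at 4 µM, a synthetic peptide agonist of the calcium-sensing receptor, and in the other 3 they had RANKL alone. The series text states 5 days of exposure throughout, while the sample labels state 5, 6 and 7 days for replicates 1, 2 and 3 of each group. All libraries come from 1 cell line, no library without RANKL was analysed here, and no label says that the replicates were separate cultures. Each p-value therefore reflects the spread among these libraries and no more, and that spread may be technical.

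In autophagy a membrane cup grows around cytoplasm, closes into an autophagosome and delivers its load to lysosomes. The ULK kinase complex and a class III PI3-kinase start the cup, ATG9 and ATG2 proteins bring membrane and lipid to it, a ubiquitin-like conjugation machinery fixes LC3 and GABARAP proteins to its lipid, and receptors tie cargo to those proteins. Osteoclasts also use the LC3 conjugation machinery at the ruffled border, the membrane through which they secrete acid and proteases. Transcript levels, as measured here, do not report how much autophagy takes place.

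The deposited values are FPKM, fragments per kilobase of exon scaled to the library total, and correspond to 13742913 to 16264432 gene-assigned reads per library with etelcalcetide and 14530043 to 15877596 with RANKL alone. Fold changes are log2 differences of FPKM after library scaling and addition of a pseudocount of 0.1 FPKM, RANKL + etelcalcetide over RANKL, and a gene is said to have risen or fallen where its limma p, Benjamini-Hochberg adjusted over the 11120 genes tested, was under 0.05. FPKM values are as deposited and are listed in the order of replicates 1, 2 and 3. The 7 macrophage markers examined were all tested and summed to 2812 to 2973 FPKM with etelcalcetide and 2515 to 2677 FPKM with RANKL alone. Of these 7, Adgre1 (2.82-fold), Fcgr1 (2.34-fold) and Itgam (1.70-fold) rose (limma adjusted p = 2.31e-07, 2.72e-06 and 1.57e-05), and Ptprc, Csf1r, Cd68 and Lyz2 did not pass. The 8 osteoclast markers, of which 7 could be tested, summed to 181 to 197 FPKM with etelcalcetide and 347 to 481 FPKM with RANKL alone. The sum hides large differences between the markers. Ctsk averaged 0.191 ± 0.0570 FPKM with etelcalcetide and 94.5 ± 23.1 FPKM with RANKL alone, and Acp5 averaged 3.93 ± 0.709 FPKM with etelcalcetide and 115 ± 22.1 FPKM with RANKL alone (SD, n = 3 each). Atp6v0d2 averaged 0.390 ± 0.0812 FPKM with etelcalcetide and 31.8 ± 3.70 FPKM with RANKL alone. These 3 genes, Ocstamp and Oscar, the last with 0 reads with etelcalcetide and 310 in all with RANKL alone, fell (limma adjusted p at most 1.98e-05). Mmp9, which made up most of the sum with etelcalcetide, averaged 163 ± 8.04 FPKM with etelcalcetide and 158 ± 21.7 FPKM with RANKL alone and did not pass, nor did Dcstamp. Some markers of each list thus moved with every comparison below, and their part in the results was not tested. Markers of T and B cells and of erythroid cells had 0 reads, those of fibroblasts and osteoblasts at most 3 reads in a library, with Col1a2 and Col3a1 at 0. Markers of epithelium and endothelium had at most 62 reads in a library and summed to 0.0290 to 0.0984 FPKM with etelcalcetide and 0.489 to 0.751 FPKM with RANKL alone, with Krt8 and Cdh1 at 0. Reads of rRNA genes made up 0.795%, 2.71% and 0.461% of the libraries with etelcalcetide and 1.25%, 1.25% and 1.75% of those with RANKL alone.

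Autophagy transcripts were more often higher than lower with etelcalcetide, by small amounts. Of the 38 tested genes, 19 rose and 4 fell, and 15 did not pass the test. Among all 11120 tested genes, 26.0% rose and 27.0% fell, 53.0% in all, so the share of autophagy genes that rose, 50%, stood above the background and the share that fell, 10.5%, below it. The median log2 fold change was 0.24 over the 38 genes, with a range of -0.86 to 0.79, and -0.01 over all tested genes. Of the 19, 7 rose by at least 1.5-fold (Map1lc3a, Atg4d, Atg2a, Atg9a, Atg16l2, Ulk1 and Wipi1), and of the 4 that fell, only Atg4a did so by that much. Among all tested genes, 9.94% rose and 8.08% fell by at least 1.5-fold. The deposited FPKM of the groups did not overlap for 26 of the 38 in the higher direction, against a background of 36.7%, and for 3 in the lower direction, against 24.5%. Scaling mattered for the balance of directions: with library totals alone, 24 autophagy genes rose and 3 fell, while 3558 of all genes rose and 2272 fell, in place of 2896 that rose and 2998 that fell. With each library left out in turn, the count that rose ran from 13 to 20 and the count that fell from 3 to 6. Among all genes tested in those fits, 10897 to 10941, the matching counts ran from 2224 to 3064 and from 2390 to 3000. Among the 27 tested genes that share at most 10% of their exon length with a neighbour and have no near-identical copy, a selection made after seeing the data, 14 rose and 2 fell. In bulk RNA, fewer cells of a type and less RNA per cell cannot be told apart, here or in any result below.

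**Figure D1:**
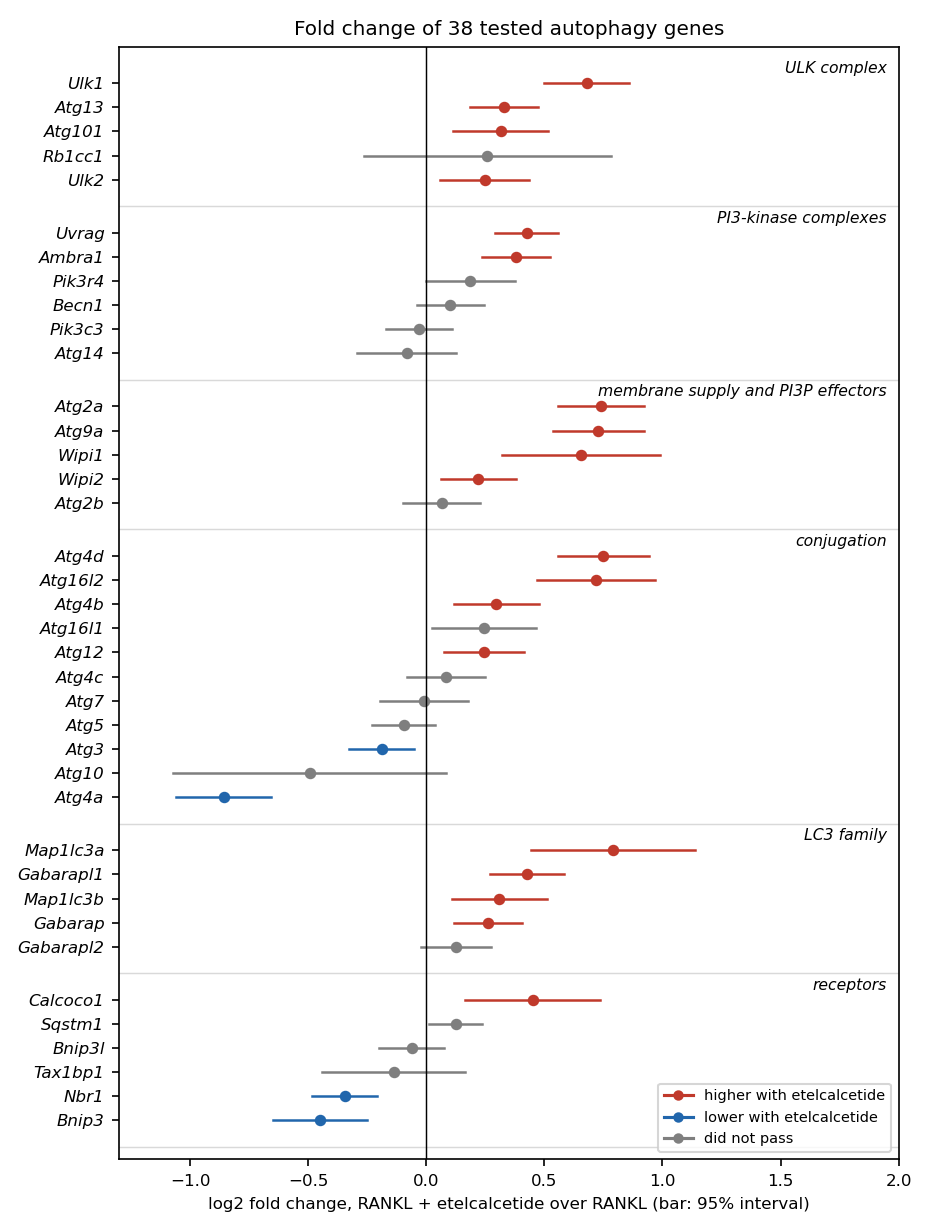
Log2 fold change of RANKL + etelcalcetide over RANKL (horizontal axis) for the 38 tested autophagy genes, grouped by role, from limma on scaled FPKM of 3 libraries per group; bars are 95% intervals before adjustment for multiple testing. Red marks the 19 genes that rose, blue the 4 that fell and grey the 15 that did not pass; the longest shift upward is that of Map1lc3a (0.79) and the longest downward that of Atg4a (-0.86).

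Levels differed widely among the 39 genes on the per-length scale of FPKM. Averaged over both groups, Gabarap at 125.7 FPKM and Sqstm1 at 110.0 FPKM were the most abundant. Their values overlapped across the pooled libraries, though Gabarap was the higher of them within each library. Bnip3 followed at 60.8 FPKM and Bnip3l at 39.2 FPKM, with no overlap between these genes. The lowest tested genes were Wipi1 at 1.38 FPKM and Rb1cc1 at 1.30 FPKM, whose values overlapped.

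The sequence just upstream was available for genes at both ends of this range. RefSeq promoter windows on GRCm38.p6, from 250 bases before to 50 bases after a transcript start, were matched by symbol for 32 of the 39 genes, giving 36 windows. They are printed 5′ to 3′ on the gene's strand for the kinase gene Ulk1, the lipid-transfer gene Atg2a and the protease gene Atg4d, which rose by at least 1.5-fold, and for Atg4a, Atg3 and Bnip3, which fell. For Atg4a, which has a pair of windows, the one at the annotated gene start is shown. Capitals mark CACGTG, the E-box core recognised by MiT/TFE and other helix-loop-helix factors.
Ulk1, chr5:110810032-110810331, minus strand: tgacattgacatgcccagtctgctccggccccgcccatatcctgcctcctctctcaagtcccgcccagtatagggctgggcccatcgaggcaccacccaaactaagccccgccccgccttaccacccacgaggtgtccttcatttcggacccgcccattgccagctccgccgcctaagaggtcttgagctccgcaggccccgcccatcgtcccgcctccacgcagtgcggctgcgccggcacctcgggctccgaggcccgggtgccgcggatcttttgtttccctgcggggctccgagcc
Atg2a, chr19:6241418-6241717, plus strand: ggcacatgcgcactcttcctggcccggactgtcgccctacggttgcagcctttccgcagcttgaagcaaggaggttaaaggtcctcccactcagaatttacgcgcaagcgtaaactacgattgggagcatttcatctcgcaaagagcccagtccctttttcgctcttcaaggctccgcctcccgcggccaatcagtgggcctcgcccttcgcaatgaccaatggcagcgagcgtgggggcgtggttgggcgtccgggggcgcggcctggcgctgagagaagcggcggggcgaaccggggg
Atg4d, chr9:21265035-21265334, plus strand: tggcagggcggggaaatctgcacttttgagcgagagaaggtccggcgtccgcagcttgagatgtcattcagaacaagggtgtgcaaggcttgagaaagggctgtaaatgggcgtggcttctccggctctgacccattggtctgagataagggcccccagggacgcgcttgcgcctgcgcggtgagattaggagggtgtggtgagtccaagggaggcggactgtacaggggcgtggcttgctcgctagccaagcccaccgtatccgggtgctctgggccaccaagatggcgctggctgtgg
Atg4a, chrX:140956657-140956956, plus strand: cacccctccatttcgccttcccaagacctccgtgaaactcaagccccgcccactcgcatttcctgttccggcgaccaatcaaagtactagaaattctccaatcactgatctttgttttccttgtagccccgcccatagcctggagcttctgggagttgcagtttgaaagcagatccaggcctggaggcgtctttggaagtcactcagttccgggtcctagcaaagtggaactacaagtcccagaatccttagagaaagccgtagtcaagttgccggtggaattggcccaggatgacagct
Atg3, chr16:45158579-45158878, plus strand: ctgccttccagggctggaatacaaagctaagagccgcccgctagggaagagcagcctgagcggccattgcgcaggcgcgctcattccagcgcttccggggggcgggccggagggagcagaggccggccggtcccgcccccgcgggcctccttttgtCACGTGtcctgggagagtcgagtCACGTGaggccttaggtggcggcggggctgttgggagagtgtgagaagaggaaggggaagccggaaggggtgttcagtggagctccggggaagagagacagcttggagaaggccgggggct
Bnip3, chr7:138909457-138909756, minus strand: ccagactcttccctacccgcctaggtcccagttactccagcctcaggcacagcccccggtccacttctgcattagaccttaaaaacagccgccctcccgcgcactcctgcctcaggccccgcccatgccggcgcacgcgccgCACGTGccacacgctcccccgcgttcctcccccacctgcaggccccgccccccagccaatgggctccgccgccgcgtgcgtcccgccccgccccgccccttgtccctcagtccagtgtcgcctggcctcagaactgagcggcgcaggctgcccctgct

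Neither the 3 windows of rising genes nor the Atg4a window holds a CACGTG, whereas Atg3 holds 2 and Bnip3 holds 1. Nbr1, which also fell and is not printed, has no CACGTG in its windows. Over all matched genes the motif, which reads the same on both strands, was found in 5, namely Atg14, Atg3, Atg5, Atg7 and Bnip3. That is 13.9% of the 36 windows, against 7.15% of all 32851 windows in the RefSeq table. None of the 17 matched genes that rose held it, and 5 of the 15 other matched genes did. Of these 5, Atg14, Atg5 and Atg7 did not pass the test, and the fall of Atg3 was lost in 7 of 16 alternatives. The 15 others include Optn, which was not tested, and Gabarapl2, Pik3r4 and Sqstm1, which rose with library totals alone. Map1lc3a and Atg12, which rose, had no matched window. A link between motif and direction was not tested. The longer form TCACGTGA was found in Atg3 alone, 2.78% of windows against 0.974% of all. The shorter ACGTG, searched on both strands and contained in every CACGTG, was found in 16 genes, 4 of the 17 that rose and 12 of the 15 others, and in 44.4% of windows against 19.6% of all. TGACNNNGC, an antioxidant-response type motif, was found in Atg13, Map1lc3b, Tax1bp1 and Ulk2, 11.1% of windows against 12.4% of all. GAAANNGAA, an interferon-response type motif, was found in Atg10, Nbr1 and Uvrag, 8.33% against 8.56%, and the forkhead type GTAAACA in none, against 3.65% of all. The windows of autophagy genes had a median GC content of 60.8%, against 52.7% over all windows. These matches describe letters in the windows and say nothing about binding.

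Initiation genes made up the largest group, and 10 of the 16 rose, 0 fell and 6 did not pass (median log2 fold change 0.29). These shares, 62.5% higher and 0% lower, stand beside 26.0% and 27.0% of all tested genes. The parts of this group described below are small, and nothing is read from the balance within any of them. Within the ULK complex 4 of 5 genes rose, 80% against 26.0% of all tested genes. Ulk1 encodes the serine/threonine kinase that starts autophagy and is held in check by mTORC1 (ENSMUSG00000029512, chromosome 5, 110784488 to 110810097, minus strand). Its level was 6.44, 6.79 and 6.62 FPKM with etelcalcetide, against 3.70, 4.07 and 3.87 FPKM with RANKL alone. All 3 libraries with etelcalcetide lay well above all 3 others, and the log2 fold change was 0.68 (SE 0.0801, limma adjusted p = 0.00016).

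Atg13, the adaptor that joins the ULK kinase to its scaffold, had 18.3, 20.2 and 20.3 FPKM with etelcalcetide and 14.6, 14.3 and 15.3 FPKM with RANKL alone. The groups did not overlap, and the gene rose by 0.33 on the log2 scale (SE 0.0637, limma adjusted p = 0.00245). Atg101, the partner that stabilises ATG13, had 15.4, 16.5 and 17.6 FPKM with etelcalcetide against 11.2, 12.5 and 14.1 FPKM with RANKL alone, a rise of 0.31 (SE 0.0891, limma adjusted p = 0.0157). Its groups also stood apart, though the gap between the lowest library with etelcalcetide and the highest with RANKL alone was small. Ulk2, the second ULK kinase, had 8.69, 8.30 and 9.38 FPKM with etelcalcetide against 7.48, 7.13 and 6.38 FPKM with RANKL alone, a rise of 0.25 (SE 0.0830, limma adjusted p = 0.0322). The ratio of Ulk1 to Ulk2 in FPKM was 0.742, 0.817 and 0.706 with etelcalcetide and 0.494, 0.570 and 0.607 with RANKL alone, so Ulk1 was the less abundant kinase in every library, and the ratio was higher in each library with etelcalcetide. Rb1cc1, which encodes the large scaffold FIP200, did not pass: it had 1.28, 1.75 and 1.32 FPKM with etelcalcetide and 1.62, 0.952 and 0.900 FPKM with RANKL alone, and its groups overlapped through RANKL replicate 1. Without that library the Rb1cc1 log2 fold change was 0.51 in place of 0.26 (limma adjusted p = 0.0482, range over 16 alternatives 0.0482 to 0.756). The rise of Ulk2 was lost with the replicate block (limma adjusted p = 0.0535) and without RANKL replicate 2 (0.0577) or 3 (0.0732) or etelcalcetide replicate 1 (0.0677), 2 (0.0601) or 3 (0.131), with a range of 0.0106 to 0.131 over 16 alternatives. That of Atg101 was lost without etelcalcetide replicate 2 (limma adjusted p = 0.0543) or 3 (0.0656), with a range of 0.00343 to 0.0656.

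In the class III PI3-kinase complexes, which mark the forming membrane with phosphatidylinositol 3-phosphate, 2 of 6 genes rose, both of them accessory proteins. That share of 33.3% stands beside 26.0% of all tested genes. Uvrag, a Beclin 1 partner that also acts in endosome traffic (ENSMUSG00000035354, chromosome 7, 98885021 to 99141141, minus strand), had 22.1, 20.5 and 22.4 FPKM with etelcalcetide, against 15.9, 14.5 and 15.3 FPKM with RANKL alone. Ambra1, a scaffold that links Beclin 1 to ubiquitin ligases, had 15.5, 16.8 and 16.5 FPKM with etelcalcetide against 11.6, 11.5 and 12.4 FPKM with RANKL alone. The groups of both genes stood clearly apart, with log2 fold changes of 0.42 for Uvrag (SE 0.0585, limma adjusted p = 0.000386) and 0.38 for Ambra1 (SE 0.0635, limma adjusted p = 0.00108). Uvrag shares 17.6% of its exon length with antisense Gm45187, which had 1 read in each group.

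The core of the PI3-kinase complexes did not pass the test. Pik3c3, the catalytic subunit VPS34, had 13.4, 13.7 and 14.5 FPKM with etelcalcetide and 12.9, 13.3 and 14.0 FPKM with RANKL alone. These values overlapped, and the log2 fold change of -0.03 (95% interval -0.17 to 0.11, limma adjusted p = 0.690) changed sign to 0.05 with library totals alone. Atg14, the subunit that directs the kinase to autophagosome formation, averaged 3.36 ± 0.205 FPKM with etelcalcetide and 3.37 ± 0.186 FPKM with RANKL alone (SD, n = 3 each), with a log2 fold change of -0.08 (95% interval -0.29 to 0.13). Becn1, which encodes the scaffold Beclin 1, had 9.74, 9.25 and 9.69 FPKM with etelcalcetide against 8.17, 8.60 and 8.49 FPKM with RANKL alone. Pik3r4, the regulatory subunit VPS15, had 4.80, 4.60 and 5.23 FPKM with etelcalcetide against 4.08, 4.12 and 3.91 FPKM with RANKL alone. The libraries of these last genes did not overlap in either case, but after scaling the differences were 0.10 for Becn1 (limma adjusted p = 0.203) and 0.19 for Pik3r4 (limma adjusted p = 0.0874). With library totals alone both passed, at limma adjusted p = 0.0434 for Becn1 (range over 16 alternatives 0.0434 to 0.367) and 0.0289 for Pik3r4 (0.0289 to 0.287), and Pik3r4 also passed with limma-voom on recovered reads (0.0414). Becn1 shares 43.9% of its exon length with the antisense gene Cntd1, which had 13 reads in all with etelcalcetide and 12 with RANKL alone.

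Among the genes that supply membrane and read phosphatidylinositol 3-phosphate 4 of 5 rose, with a median log2 fold change of 0.66. That share of 80% stands beside 26.0% of all tested genes. Atg2a encodes a tube-shaped protein that carries lipid into the growing membrane (ENSMUSG00000024773, chromosome 19, 6241668 to 6262335, plus strand). It had 11.3, 12.0 and 12.8 FPKM with etelcalcetide, against 6.97, 6.19 and 7.22 FPKM with RANKL alone. The groups did not come near each other, and the log2 fold change was 0.74 (SE 0.0800, limma adjusted p = 9.64e-05), 1.67-fold. Its paralog Atg2b had 8.17, 7.62 and 8.09 FPKM with etelcalcetide against 7.19, 7.56 and 6.85 FPKM with RANKL alone and did not pass (log2 fold change 0.07, 95% interval -0.10 to 0.23, limma adjusted p = 0.471). The ratio of Atg2a to Atg2b in FPKM was 1.39, 1.58 and 1.59 with etelcalcetide and 0.969, 0.819 and 1.05 with RANKL alone. By FPKM, Atg2a was thus the more abundant paralog in all 3 libraries with etelcalcetide and in 1 of the others. That order depends on the annotated exon lengths, 7693 bases for Atg2a and 13456 for Atg2b. By reads Atg2b was ahead in every library.

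Atg9a encodes the lipid-scrambling membrane protein whose vesicles seed autophagosomes (ENSMUSG00000033124, chromosome 1, 75180860 to 75192196, minus strand). It had 7.62, 7.75 and 7.75 FPKM with etelcalcetide and 3.95, 4.65 and 4.53 FPKM with RANKL alone. The libraries with etelcalcetide lay close together and far above the others, and Atg9a rose by 0.73 on the log2 scale (SE 0.0852, limma adjusted p = 0.000152). Atg9a shares 32.6% of its exon length with other genes, of which 0.798% of the exon length lies antisense to Ankzf1 and the rest lies on the same strand as Gm29253, which had 0 reads in every library. Wipi1, a propeller protein that binds phosphatidylinositol 3-phosphate, was low at 1.65, 1.67 and 1.92 FPKM with etelcalcetide and 0.981, 0.885 and 1.19 FPKM with RANKL alone, and rose by 0.66 on the log2 scale (SE 0.147, limma adjusted p = 0.00525). Wipi2, the related protein that recruits ATG16L1, was more abundant, at 9.12, 10.1 and 9.80 FPKM with etelcalcetide and 7.91, 7.95 and 7.67 FPKM with RANKL alone, and rose by 0.22 (SE 0.0709, limma adjusted p = 0.0268). Neither WIPI gene's groups overlapped. The rise of Wipi2 was lost without RANKL replicate 2 (limma adjusted p = 0.0552) or 3 (0.0524) and without etelcalcetide replicate 2 (0.130) or 3 (0.0879), with a range of 0.00608 to 0.130 over 16 alternatives.

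**Figure D2:**
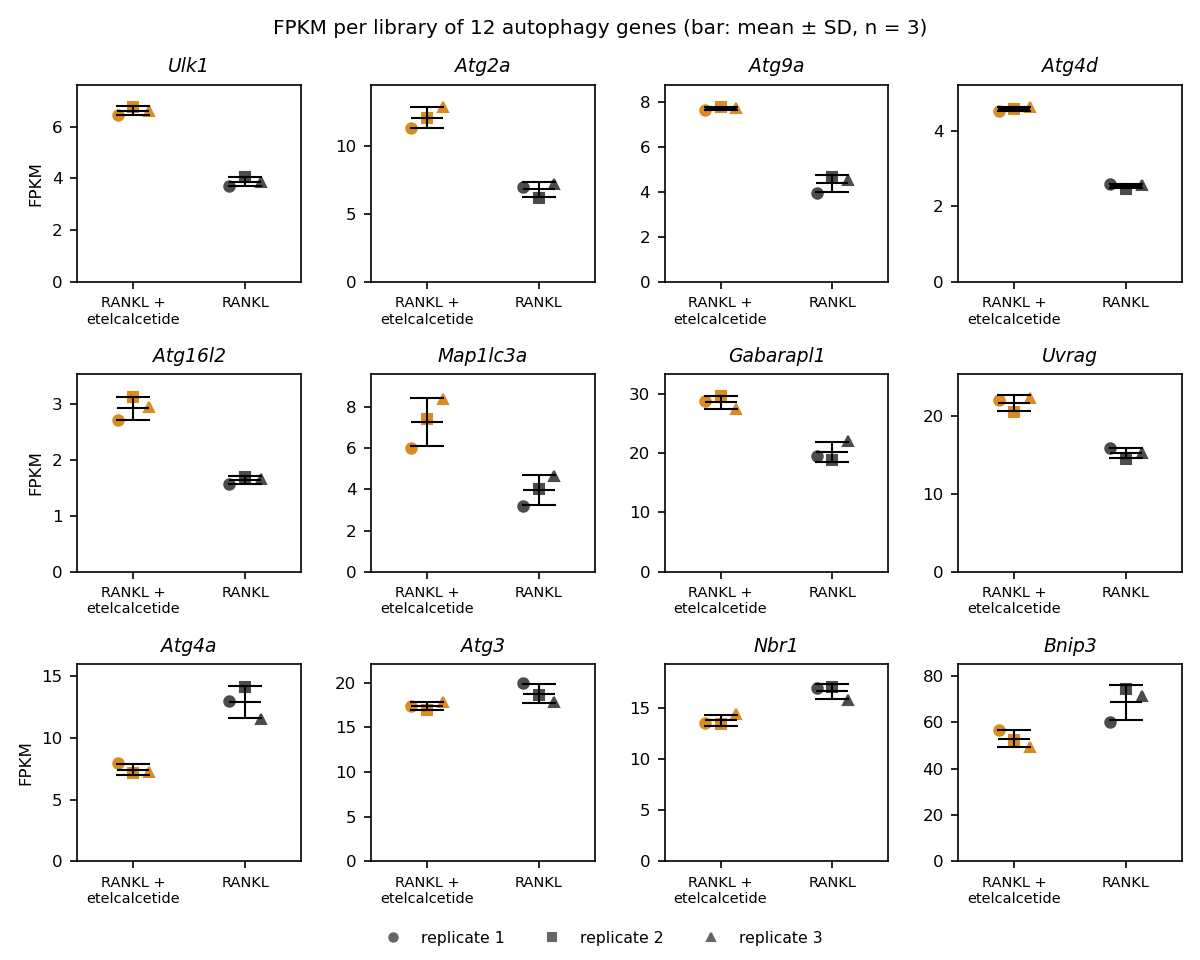
Deposited FPKM of 12 autophagy genes in each library (points, with shape giving the replicate number), RANKL + etelcalcetide on the left and RANKL on the right of each panel; bars show the mean ± SD of 3 libraries. The 12 genes were picked from those that rose or fell, so their separation is not a rate for autophagy genes. The groups do not overlap in 11 of the panels. In the Atg3 panel RANKL replicate 3 (17.8 FPKM) lies within the range of the libraries with etelcalcetide (16.9 to 17.9 FPKM). Among all tested genes the groups stood apart for 36.7% in the higher and 24.5% in the lower direction.

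Of the 11 genes of the conjugation machinery, 4 rose, 2 fell and 5 did not pass (median log2 fold change 0.08). These shares, 36.4% higher and 18.2% lower, stand beside 26.0% and 27.0% of all tested genes, and with so few genes nothing is read from the balance. The clearest contrast lay among the ATG4 proteases, which trim LC3-family proteins before conjugation and later release them from lipid. Atg4a (ENSMUSG00000079418, chromosome X, 140956907 to 141164270, plus strand) had 7.94, 7.14 and 7.26 FPKM with etelcalcetide, against 13.0, 14.1 and 11.5 FPKM with RANKL alone. All 3 libraries with etelcalcetide lay far below the others, and the gene fell by 0.86 on the log2 scale (SE 0.0887, limma adjusted p = 7.44e-05), to 0.55 of the RANKL level. Atg4d (ENSMUSG00000002820, chromosome 9, 21265293 to 21277772, plus strand) had 4.51, 4.58 and 4.63 FPKM with etelcalcetide against 2.59, 2.46 and 2.55 FPKM with RANKL alone. Its libraries were tightly grouped and widely apart, and it rose by 0.75 (SE 0.0849, limma adjusted p = 0.000127). Atg4b, the protease with the broadest activity on this family, had 6.55, 6.81 and 6.86 FPKM with etelcalcetide against 5.05, 4.90 and 5.60 FPKM with RANKL alone, without overlap, and rose by 0.30 (SE 0.0790, limma adjusted p = 0.0119), a call lost without etelcalcetide replicate 2 (limma adjusted p = 0.0547, range over 16 alternatives 0.00306 to 0.0547). Atg4c had 8.76, 8.84 and 9.01 FPKM with etelcalcetide against 8.25, 8.19 and 7.33 FPKM with RANKL alone and did not pass (log2 fold change 0.08, limma adjusted p = 0.364).

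Together the 4 ATG4 transcripts summed to 27.8, 27.4 and 27.8 FPKM with etelcalcetide. With RANKL alone they summed to 28.9, 29.7 and 27.0 FPKM. These deposited sums overlapped. After library scaling, each sum with etelcalcetide lay below each sum with RANKL alone, and this difference was not tested. The make-up of the sum also differed. Atg4a accounted for 28.6%, 26.1% and 26.1% of the sum with etelcalcetide and for 45.0%, 47.6% and 42.7% with RANKL alone. The share of Atg4d was 16.2%, 16.7% and 16.7% with etelcalcetide and 8.96%, 8.30% and 9.43% with RANKL alone. By FPKM, Atg4a ranked first of the 4 in every library with RANKL alone, and Atg4c in every library with etelcalcetide. Annotated exon length, by which FPKM divides, was 2661 bases for Atg4a and 3351 for Atg4c. It was 8278 bases for Atg4b and 7264 for Atg4d. By reads Atg4b led in every library, so the order and the size of the shares depend on these lengths. The transcript of Atg4a is near-identical to that of Atg4a-ps (99.3% over 2115 bases), to which 9 reads were assigned with etelcalcetide and 14 with RANKL alone, so some of its reads may have been split. Atg4d shares 19.3% of its exon length with antisense Kri1, which did not pass (log2 fold change -0.08, limma adjusted p = 0.294).

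**Figure D3:**
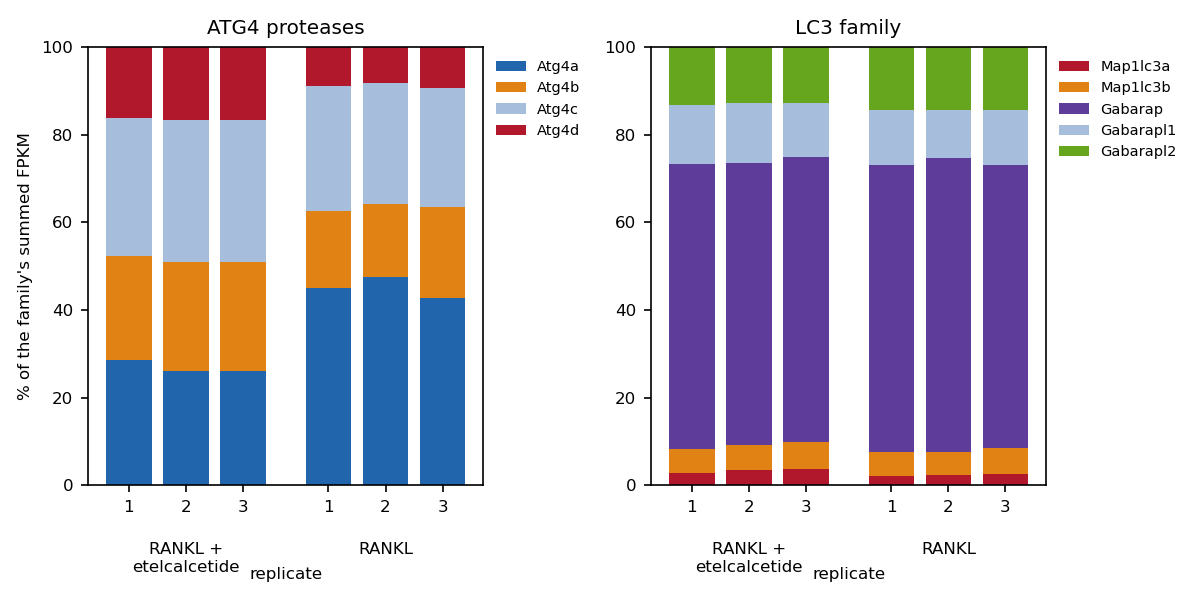
Share of each gene in the summed FPKM (vertical axis, %) of the 4 ATG4 proteases (left) and the 5 tested LC3-family genes (right), 1 stacked bar per library, RANKL + etelcalcetide left of RANKL. The blue Atg4a part spans 26.1% to 28.6% with etelcalcetide and 42.7% to 47.6% with RANKL alone. The purple Gabarap part spans 64.3% to 65.1% with etelcalcetide and 64.6% to 67.1% with RANKL alone. The shares depend on annotated exon length.

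Of the 3 enzymes that carry out conjugation, Atg7, Atg3 and Atg10, only Atg3 passed the test. Atg7, the activating enzyme of both conjugation reactions, had 6.75, 6.67 and 6.88 FPKM with etelcalcetide and 6.31, 5.93 and 7.16 FPKM with RANKL alone. These groups overlapped, and the log2 fold change of -0.01 (95% interval -0.20 to 0.18, limma adjusted p = 0.936) turned to 0.07 with library totals alone and to 0.06 without RANKL replicate 3. Atg3, which transfers LC3 to lipid, had 17.4, 16.9 and 17.9 FPKM with etelcalcetide against 19.9, 18.6 and 17.8 FPKM with RANKL alone. It fell by 0.19 on the log2 scale (SE 0.0606, limma adjusted p = 0.0277), although its deposited values overlapped through RANKL replicate 3. That fall was lost with library totals alone (limma adjusted p = 0.175), with one prior variance for all genes (0.0519), and without RANKL replicate 1 (0.0699) or 2 (0.0709) or etelcalcetide replicate 1 (0.0747), 2 (0.0854) or 3 (0.0554), over a range of 0.0102 to 0.175. Atg10, which transfers ATG12 to ATG5, was low and scattered, at 2.04, 1.36 and 2.90 FPKM with etelcalcetide against 3.13, 3.12 and 2.04 FPKM with RANKL alone, and did not pass (log2 fold change -0.49, limma adjusted p = 0.134). Without RANKL replicate 3 or etelcalcetide replicate 3 the Atg10 value was -0.69 or -0.75 and passed (limma adjusted p = 0.0450 and 0.0317, range over 16 alternatives 0.0317 to 0.406).

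The ATG12, ATG5 and ATG16L1 proteins form the complex that acts as the ligase for LC3. Atg12 had 5.76, 5.56 and 5.84 FPKM with etelcalcetide and 4.70, 4.37 and 4.61 FPKM with RANKL alone, without overlap, and rose by 0.24 on the log2 scale (SE 0.0748, limma adjusted p = 0.0225). The call was lost without RANKL replicate 2 (limma adjusted p = 0.0784) or etelcalcetide replicate 1 (0.0642), 2 (0.0682) or 3 (0.0827), with a range of 0.00746 to 0.0827 over 16 alternatives. Atg5 averaged 16.0 ± 0.359 FPKM with etelcalcetide and 16.2 ± 0.715 FPKM with RANKL alone (SD, n = 3 each), and did not pass (log2 fold change -0.10, 95% interval -0.23 to 0.04, limma adjusted p = 0.202). Atg16l1, which places the complex on the membrane, had 3.98, 4.24 and 3.67 FPKM with etelcalcetide against 3.08, 3.06 and 3.31 FPKM with RANKL alone. Its groups stood apart, but at 0.24 it did not pass (SE 0.0968, limma adjusted p = 0.0604), and it passed with library totals alone (0.0196), limma-voom on recovered reads (0.0244) and one prior variance (0.0402), over a range of 0.0196 to 0.224. Its paralog Atg16l2 (ENSMUSG00000047767, chromosome 7, 101263034 to 101302251, minus strand) had 2.72, 3.13 and 2.95 FPKM with etelcalcetide, against 1.57, 1.70 and 1.67 FPKM with RANKL alone. Those groups were far apart, and Atg16l2 rose by 0.72 (SE 0.110, limma adjusted p = 0.000686), 1.65-fold. The ratio of Atg16l1 to Atg16l2 was 1.46, 1.36 and 1.25 with etelcalcetide and 1.96, 1.81 and 1.99 with RANKL alone.

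All 5 LC3-family genes had higher deposited FPKM in every library with etelcalcetide than in any with RANKL alone, and 4 of them rose (median log2 fold change 0.31). Among all tested genes, the deposited FPKM stood apart in this direction for 36.7%, and 26.0% rose. With only 5 genes, nothing is read from the balance. Map1lc3a, one of the LC3 proteins (ENSMUSG00000027602, chromosome 2, 155276297 to 155278073, plus strand), had 6.04, 7.46 and 8.38 FPKM with etelcalcetide and 3.22, 4.00 and 4.66 FPKM with RANKL alone. Both groups were widely spread without meeting, and it rose by 0.79 on the log2 scale (SE 0.153, limma adjusted p = 0.00246), the highest value of the 38 genes. Map1lc3b, the LC3 form used as the standard autophagosome marker, had 11.6, 12.3 and 13.6 FPKM with etelcalcetide against 8.68, 9.40 and 10.5 FPKM with RANKL alone and rose by 0.31 (SE 0.0882, limma adjusted p = 0.0161). Without etelcalcetide replicate 3 the call on Map1lc3b was lost (limma adjusted p = 0.0724, range over 16 alternatives 0.00390 to 0.0724).

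Gabarap, an LC3-related protein that acts late in autophagosome maturation (ENSMUSG00000018567, chromosome 11, 69991143 to 69994951, plus strand), had 139.8, 138.6 and 142.9 FPKM with etelcalcetide, against 100.9, 117.5 and 114.6 FPKM with RANKL alone. The groups did not overlap, and the rise was 0.26 on the log2 scale (SE 0.0633, limma adjusted p = 0.00747). Gabarapl1 had 28.9, 29.6 and 27.4 FPKM with etelcalcetide against 19.5, 18.9 and 22.1 FPKM with RANKL alone and rose by 0.43 (SE 0.0696, limma adjusted p = 0.000974), with 28.3% of its exon length shared with the antisense gene 1700101I11Rik, which had 5 reads in all with etelcalcetide and 2 with RANKL alone. Gabarapl2 had 28.6, 27.5 and 28.1 FPKM with etelcalcetide against 22.2, 25.2 and 25.6 FPKM with RANKL alone. Though these groups stood apart, Gabarapl2 did not pass after scaling (log2 fold change 0.13, limma adjusted p = 0.131), and it passed with library totals alone (0.0270, range over 16 alternatives 0.0270 to 0.350). Summed over the family, the level was 215, 215 and 220.4 FPKM with etelcalcetide and 155, 175 and 177 FPKM with RANKL alone. Gabarap made up most of that sum in every library, 64.3% to 65.1% with etelcalcetide and 64.6% to 67.1% with RANKL alone. Map1lc3a made up 2.81% to 3.80% with etelcalcetide and 2.08% to 2.63% with RANKL alone. Annotated exon length was 1844 bases for Gabarap, 7517 for Map1lc3b and 1181 for Map1lc3a. By reads Gabarap also led in every library, but Map1lc3b came next, so the order and the size of the shares depend on these lengths. Gabarapl2 and Map1lc3b have near-identical processed pseudogenes, none with more than 14 reads in either group.

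Of the 6 cargo receptors tested, 1 rose, 2 fell and 3 did not pass (median log2 fold change -0.10). The shares, 16.7% higher and 33.3% lower, stand beside 26.0% and 27.0% of all tested genes, and nothing is read from the balance of so few. Nbr1, a receptor of ubiquitinated cargo and of peroxisomes (ENSMUSG00000017119, chromosome 11, 101552149 to 101581951, plus strand), had 13.6, 13.5 and 14.4 FPKM with etelcalcetide and 17.0, 17.1 and 15.8 FPKM with RANKL alone. Its groups did not overlap, and it fell by 0.35 on the log2 scale (SE 0.0610, limma adjusted p = 0.00149). Sqstm1, which encodes p62, the best known receptor of ubiquitinated aggregates, had 113.9, 119.1 and 120.2 FPKM with etelcalcetide against 98.7, 102.8 and 105.1 FPKM with RANKL alone. The FPKM groups of Sqstm1 were also apart, in the opposite direction, but after scaling the gene did not pass (log2 fold change 0.12, SE 0.0494, limma adjusted p = 0.0601). It passed with library totals alone (limma adjusted p = 0.00784), without RANKL replicate 3 (0.0453) and without etelcalcetide replicate 1 (0.0484), with a range of 0.00784 to 0.214 over 16 alternatives. Sqstm1 shares 17.3% of its exon length with antisense Mrnip, which did not pass (log2 fold change 0.14, SE 0.204). The ratio of Sqstm1 to Nbr1 was 8.40, 8.82 and 8.33 with etelcalcetide and 5.80, 6.00 and 6.63 with RANKL alone.

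Bnip3, a mitochondrial outer-membrane receptor induced by hypoxia (ENSMUSG00000078566, chromosome 7, 138890836 to 138909519, minus strand), had 56.9, 52.3 and 49.5 FPKM with etelcalcetide and 60.1, 74.2 and 71.5 FPKM with RANKL alone. RANKL replicate 1 came close to the libraries with etelcalcetide without entering their range, and Bnip3 fell by 0.45 on the log2 scale (SE 0.0874, limma adjusted p = 0.00249). Bnip3l, the related receptor NIX of mitochondrial clearance, had 38.6, 38.1 and 41.6 FPKM with etelcalcetide against 40.8, 39.8 and 36.3 FPKM with RANKL alone. Those groups overlapped, and its log2 fold change of -0.06 (95% interval -0.20 to 0.08, limma adjusted p = 0.425) changed sign to 0.02 with library totals alone. Both genes have near-identical copies elsewhere, none with more than 41 reads in either group, and Bnip3 shares 22.3% of its exon length with antisense Gm45507, which had 0 reads. Calcoco1, a receptor of endoplasmic reticulum and Golgi membranes, had 4.12, 4.47 and 5.65 FPKM with etelcalcetide and 3.22, 3.49 and 2.99 FPKM with RANKL alone, without overlap. It rose by 0.45 (SE 0.126, limma adjusted p = 0.0148), a call lost without etelcalcetide replicate 3, its highest library (log2 fold change 0.32, limma adjusted p = 0.0588, range over 16 alternatives 0.00447 to 0.0588).

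Tax1bp1, a receptor of ubiquitinated cargo and ferritin, had 8.29, 8.40 and 8.26 FPKM with etelcalcetide and 10.8, 8.56 and 7.07 FPKM with RANKL alone. The RANKL libraries lay on both sides of the others, and Tax1bp1 did not pass (log2 fold change -0.14, limma adjusted p = 0.410). Its value was 0.02 without RANKL replicate 1 and -0.29 without RANKL replicate 3, where it passed (limma adjusted p = 0.0359, range over 16 alternatives 0.0359 to 0.905). Optn, which encodes the mitophagy receptor optineurin, was too low to test, with 3, 5 and 0 reads with etelcalcetide and 1, 4 and 0 reads with RANKL alone.

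Other genes of the pathway, 65 in 4 lists, are not among the 39. Of the 60 tested, 20 rose and 8 fell (median log2 fold change 0.11), which is 33.3% and 13.3%, against 26.0% and 27.0% of all tested genes. In upstream nutrient and energy control 5 of 18 tested genes rose, a share of 27.8% near the background, and 2 fell, 11.1%. The stress-induced mTORC1 inhibitor Sesn1 fell by 0.80 on the log2 scale, and Tsc2, whose protein holds back mTORC1, rose by 0.41 (limma adjusted p = 1.69e-05 and 0.00502). Its partner Tbc1d7 rose by 0.52 (limma adjusted p = 0.00198), while Rheb, the GTPase they act on, fell by 0.24 (limma adjusted p = 0.0107), a call lost with library totals alone (0.0676, range over 16 alternatives 0.00425 to 0.0676). Of 14 further core autophagy genes 5 rose (35.7%) and 2 fell (14.3%). Atg9b, the paralog of Atg9a, had 1.77, 1.73 and 2.03 FPKM with etelcalcetide, against 4.47, 4.72 and 4.78 FPKM with RANKL alone. It thus moved opposite to Atg9a, by -1.37 on the log2 scale (SE 0.0987, limma adjusted p = 9.24e-06), with groups far apart. Vmp1, a lipid scramblase of the endoplasmic reticulum, rose by 0.36, Trp53inp2 by 0.56 and Zfyve1, a phosphatidylinositol 3-phosphate binding protein, by 0.65 (limma adjusted p = 0.00106, 0.00112 and 0.00161).

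In the list of autophagosome fusion with lysosomes 7 of 16 genes rose (43.8%) and 1 fell (6.25%). The SNARE gene Vamp8 rose by 0.45 and the tethering gene Vps18 by 0.31, whereas the adaptor Plekhm1 fell by 0.33 (limma adjusted p = 0.000713, 0.00201 and 0.00428). Tmem175, a lysosomal ion channel, rose by 0.50 (limma adjusted p = 0.00578), with 35.3% of its exon length shared with antisense Dgkq. No values of Dgkq are given here, and its part in this rise was not tested. Among further receptors and factors of selective autophagy 3 of 12 tested rose and 3 fell, 25% each, near the background of 26.0% and 27.0%. Pink1, the kinase that marks damaged mitochondria, had 12.8, 12.5 and 14.8 FPKM with etelcalcetide and 6.82, 5.58 and 7.62 FPKM with RANKL alone, a log2 fold change of 0.92 (limma adjusted p = 0.000186). It moved opposite to the mitochondrial receptor Bnip3. The ferritin receptor Ncoa4 fell by 0.52, Nufip1 by 0.38, and Tollip rose by 0.34 (limma adjusted p = 0.000341, 0.0029 and 0.00208).

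**Figure D4:**
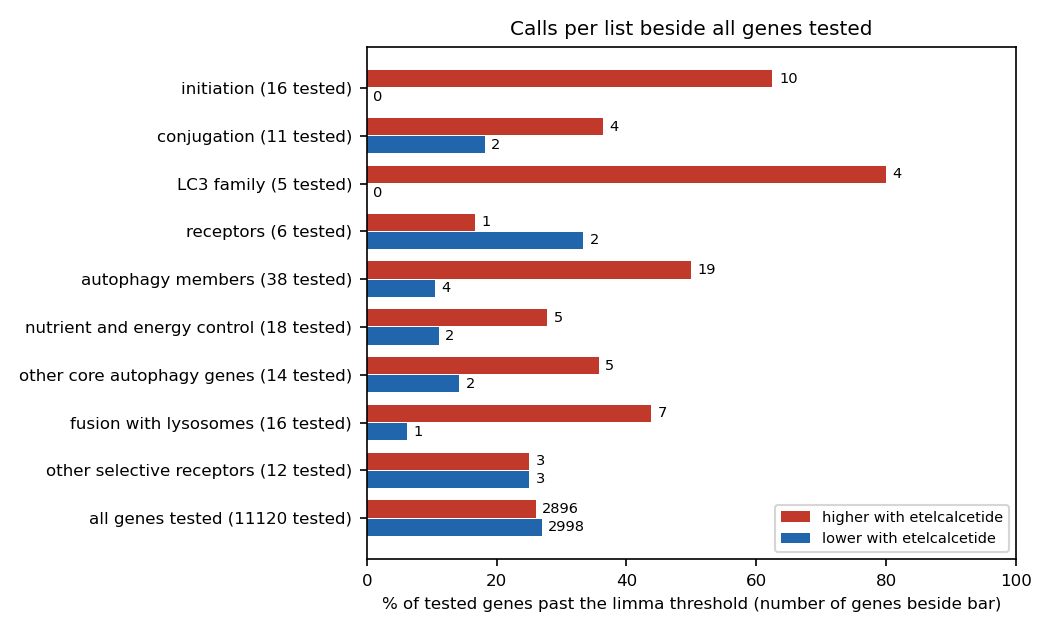
Share of tested genes that rose (red) or fell (blue) with etelcalcetide relative to RANKL alone (horizontal axis, %), with the number of genes beside each bar, for the 4 groups of autophagy genes, all 38 tested, the 4 other lists of the pathway and all 11120 genes tested. Initiation (10 of 16) and the LC3 family (4 of 5) show the longest red bars and no gene that fell, and the bars of the receptors stand for 1 gene that rose and 2 that fell.

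The MiT/TFE factors, which bind E-box motifs at many lysosomal and autophagy genes, moved apart. Mitf, whose protein also drives osteoclast genes, had 8.64, 9.81 and 9.51 FPKM with etelcalcetide and 21.1, 19.7 and 17.7 FPKM with RANKL alone, and fell by 1.14 on the log2 scale (SE 0.0840, limma adjusted p = 1.07e-05). Tfe3 had 23.8, 23.0 and 22.8 FPKM with etelcalcetide against 14.2, 13.6 and 15.4 FPKM with RANKL alone and rose by 0.61 (SE 0.0612, limma adjusted p = 6.51e-05). Both sets of libraries were widely separated, in opposite directions. Tfeb, the lowest of them, had 3.49, 3.52 and 3.42 FPKM with etelcalcetide against 2.55, 2.71 and 2.88 FPKM with RANKL alone and rose by 0.27 (limma adjusted p = 0.0371). The Tfeb call was lost with no filter (limma adjusted p = 0.0648), with the replicate block (0.0679), and without RANKL replicate 1 (0.0751) or 2 (0.0816) or etelcalcetide replicate 1 (0.0848), 2 (0.122) or 3 (0.0795), over a range of 0.0132 to 0.122.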

How the data were processed

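Bulk RNA sequencing of 6 libraries was analysed, 3 with RANKL + etelcalcetide and 3 with RANKL, grouped and numbered by the sample titles. The authors deposited FPKM values for 55536 gene identifiers per library. Upstream, HISAT2 2.1.0, Trimmomatic 0.38, DESeq2 1.22.1, featureCounts 1.6.0, FastQC, CASAVA and MultiQC are named without a role per the submitters' processing notes. Those notes give GRCh38, a human build, yet each of the 55536 identifiers matched mouse GENCODE M21, from which names, coordinates (GRCm38, 1-based) and exon lengths were taken. Whether libraries kept strand is a detail the sources used here do not give; antisense genes may therefore share reads.

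FPKM multiplied by exon length gave whole reads for 100% of values within 0.01 reads, and totals of 13742913 to 16264432 reads per library; a single read per kilobase of exon equals 0.0615 to 0.0728 FPKM. FPKM was divided by trimmed-mean factors (trimming 30% of M and 5% of A values; 1.01 to 1.04 with etelcalcetide, 0.967 to 0.978 with RANKL), 0.1 was added as pseudocount and the log2 scale was modelled with limma 3.58.1 in R 4.3.3, with group as the only term, a mean-dependent prior variance and Benjamini-Hochberg adjustment over the 11120 genes with at least 0.5 FPKM and 10 reads in 3 libraries. This scale understates the change of low genes, and for small differences deposited FPKM and tested fold change can differ in direction. The fit was also run on simulated data with far fewer changed genes than were called here, in equal numbers up and down. That run therefore does not test how scaling affects the balance of directions. Shared exon length came from the annotation, and near-identical copies (at least 98% over 200 bases) from BLAST 2.17.0 on its transcripts; tables were handled with numpy 2.4.6 and pandas 2.3.3 under Python 3.11.15.

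Replicates of a group differed beyond sampling noise (median chi-square per gene 1.10 to 2.92, against 0.455 under sampling alone), so none was counted as a copy. Same-numbered libraries of the groups share a labelled day but did not deviate together (correlations 0.0744, -0.0188 and -0.0299), so the block on replicate number is an alternative only. All 39 autophagy genes are named, with up to 4 genes of smallest adjusted p from each of the 4 other lists and the 3 MiT/TFE genes. The autophagy genes and the lists were chosen with earlier results of these data known. Alternatives changed the scaling, filter, pseudocount, prior variance and model, added the replicate block or left out a library.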

Additional observations from a re-analysis of the deposited data

How the results depend on the processing

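In 16 alternative settings 15 of the 23 calls on autophagy genes held, 12 higher and 3 lower. Over the 10 settings that use all libraries 21 held, with Ulk2 and Atg3 lost. No matching share over all called genes is given here. The number of autophagy genes that rose, 19, was 24 with library totals alone, 21 with limma-voom on recovered reads, 20 with one prior variance, 18 with the replicate block, and 13 to 20 with 1 library left out; the number that fell, 4, was 3 to 6 with 1 library left out. All changed genes numbered 5894 (2896 higher, 2998 lower) and 5709 with the replicate block (2777 higher, 2932 lower). They numbered 5830 with library totals alone (3558 higher, 2272 lower) and 6133 with limma-voom (2960 higher, 3173 lower). One prior variance gave 5650 (2827 higher, 2823 lower). With 1 library left out they numbered 4689 to 6064, with 2224 to 3064 higher and 2390 to 3000 lower. Counting only genes free of shared exon length and near-identical copies, an alternative added after seeing the data, 14 rose and 2 fell, because Atg4a and Bnip3 have such copies. Directions reversed with library totals alone for Pik3c3 (log2 fold change 0.0471), Atg7 (0.0693) and Bnip3l (0.0178), none of which passed. With 1 library left out, Atg7 ran from -0.0640 to 0.0616 and Tax1bp1 from -0.2875 to 0.0159, positive without RANKL replicate 3 for Atg7 and without RANKL replicate 1 for Tax1bp1; the cause was not tested. The block on replicate number, which is also the block on labelled day, cost the calls on Ulk2 (limma adjusted p = 0.0535) and Tfeb (0.0679) and changed no other call on a named gene; not every library correlated best with its own number in the other group. Depth limits Optn, with at most 5 reads in a library.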

Other observations

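Replicates 1, 2 and 3 are labelled 5, 6 and 7 days in the sample labels of both groups. After library scaling, 4 of the 38 tested autophagy genes, Atg101, Pik3c3, Map1lc3a and Map1lc3b, had their lowest FPKM at the label of 5 days and their highest at 7 days in both groups, 10.5% against 4.04% of all 11120 tested genes. The reverse order in both groups was seen for 0 of the 38 and for 4.37% of all tested genes. There is 1 library per group and labelled day and the series text states 5 days for all, so no test was made.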
